A study of Mus musculus with 4 samples.

Results

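Proprotein convertases are subtilisin-like proteases of the secretory pathway that cut precursor proteins into their working forms. Furin, Pcsk5, Pcsk6, Pcsk7 and Mbtps1 were followed here because an earlier reading of the same libraries had placed Furin among the most abundant genes of group 2 innate lymphoid cells (ILC2). They are 5 of the 30731 genes counted in every library. From the same family, 3 more genes, Pcsk1, Pcsk2 and Pcsk4, were added. The members were thus selected on their measured CPM in these 4 libraries, and the values of all 8 are given as a description, with no test.

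The RNA came from mouse innate lymphoid cells, lymphocytes without a rearranged antigen receptor, and was sequenced to profile cells whose genome contacts were mapped by Hi-C. Natural killer (NK) cells, a group 1 type, were wild-type spleen cells pooled from C57BL/6 mice of 8 to 12 weeks, with 1 library and no culture stated. ILC2 were wild-type bone marrow cells pooled from C57BL/6 mice of the same age and expanded with IL-25, IL-33, IL-7 and IL-2, each at 10 ng/ml, with 1 library. MNK-3 is a wild-type, ILC3-like cell line that stands in for group 3. It was derived from NIH-Swiss fetal thymocytes of day 15 and cultured with IL-15 and IL-7 at 10 ng/ml, with 2 libraries. Whether the line is 1 clone, and whether its 2 libraries came from separate cultures, is not stated, so their spread may be technical. Each cell type came from its own tissue and culture, and MNK-3 from another strain, so these cannot be told apart. In bulk RNA, fewer cells with a transcript and less of it per cell cannot be told apart either.

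Furin acts mainly in the trans-Golgi network and at the cell surface, where it cuts after clusters of basic residues. Its known substrates include the precursors of TGF-beta, of the insulin and Notch receptors, and of several ADAM and matrix metalloproteinases. Pcsk5, Pcsk6 and Pcsk7 share much of that specificity. Mbtps1, or site-1 protease, has another one and cuts the membrane-bound SREBP and ATF6 factors in the Golgi. Pcsk1 and Pcsk2 process hormone precursors in the granules of neuroendocrine cells, and Pcsk4 works in germ cells. In T cells Furin is known as a gene that IL-12 acting through Stat4 can induce and as a protease that matures TGF-beta.

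Reads in the shared genes numbered 4637812 in NK, 9298162 in ILC2, and 25617762 and 15177345 in MNK-3 replicates 1 and 2. MNK-3 replicate 1 stood apart: 76.5% of its reads named no gene, against 25.9% to 49.3% in the others, and 95.6% of shared genes had a count, against 69.6% to 76.0%. The label of each library was met by its summed markers, though not by every marker. The summed level of 6 NK markers was 6981 CPM (counts scaled to a library total of 1000000 reads in shared genes) in NK and 18.7 to 83.4 CPM elsewhere, that of 6 ILC2 markers 5566 CPM in ILC2 and 99.3 to 148 CPM elsewhere, and that of 6 group 3 markers 1684 and 2465 CPM in MNK-3 and 93.1 and 217 CPM in NK and ILC2. Within these lists Il17rb was low in ILC2 at 3.98 CPM, and Il17a was at most 1.13 CPM in MNK-3. Kit gave 1044 and 1535 CPM of the group 3 sums in MNK-3. Il22 was at 7.73 and 8.76 CPM in MNK-3 and at 4.62 CPM in ILC2. Summed markers of T cells were 111 CPM in MNK-3 replicate 1 and 5.21 to 31.5 CPM in the others. Those of B cells were 39.4 CPM in ILC2, of which Cd79b gave 37.6, and 0.988 to 24.4 CPM in the others; those of myeloid cells reached 30.1 CPM and those of red cells and platelets 6.13 CPM, both in MNK-3 replicate 1. Their part in the results below was not tested.

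The start regions of Furin and Pcsk1 are shown first, since these were the convertase genes with the widest gap between ILC2 and the other cells. RefSeq start windows on GRCm38.p6, from 250 bases before to 50 bases after a start, were held for 7 of the 8 genes, with 2 for Furin. Each is printed 5′ to 3′ on the strand of its gene, with capitals for matches to the motifs named below. The upstream Furin start is on the minus strand of chromosome 7 at 80405436, in the window chr7:80405387-80405686, the downstream one lies 2624 bases further into the gene, in chr7:80402763-80403062, and the Pcsk1 window is chr13:75089607-75089906 on the plus strand.
Furin upstream start: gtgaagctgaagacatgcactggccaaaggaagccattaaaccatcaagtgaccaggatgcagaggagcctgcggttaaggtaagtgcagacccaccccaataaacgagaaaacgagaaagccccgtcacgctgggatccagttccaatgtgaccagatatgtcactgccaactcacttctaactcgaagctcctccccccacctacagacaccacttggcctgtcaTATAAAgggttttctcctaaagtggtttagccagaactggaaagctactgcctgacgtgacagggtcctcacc
Furin downstream start: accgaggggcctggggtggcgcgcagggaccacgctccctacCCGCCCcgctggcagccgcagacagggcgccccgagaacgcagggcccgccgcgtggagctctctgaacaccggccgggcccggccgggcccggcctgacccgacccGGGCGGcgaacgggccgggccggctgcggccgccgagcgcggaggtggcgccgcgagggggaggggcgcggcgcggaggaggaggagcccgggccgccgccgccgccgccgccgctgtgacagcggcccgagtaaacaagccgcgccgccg
Pcsk1 start: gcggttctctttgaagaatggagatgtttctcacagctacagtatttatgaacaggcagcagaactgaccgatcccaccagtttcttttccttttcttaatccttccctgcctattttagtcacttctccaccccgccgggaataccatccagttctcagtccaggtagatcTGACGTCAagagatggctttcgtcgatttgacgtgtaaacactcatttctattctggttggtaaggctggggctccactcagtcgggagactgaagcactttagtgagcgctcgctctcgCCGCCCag
The 2 Furin windows differed in base composition. The upstream one had 51.3% G and C, close to the median of 52.7% over 32851 windows of this length, and the downstream one had 82.3%, above 99.6% of windows. Both strands were searched for 4 motifs chosen after the sequences were seen. The TATA box, TATAAA, began at position -23 from the upstream Furin start and is present in 13.6% of all windows. The GC box, GGGCGG, was found at -208 (minus strand) and -101 of the downstream start, and in 35.7% of all windows. The Pcsk1 window held the cAMP response element, TGACGTCA, at -78, a match found in 1.79% of windows, and a GC box at 43 on the minus strand. The GATA site searched for, AGATAA, is present in 11.2% of windows and was in none of the 3 printed. The counts are per gene, so they do not say which start was used.

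Furin (ENSMUSG00000030530) lies on the minus strand of chromosome 7 from 80388585 to 80405436 (GRCm38, GENCODE M21). It had 93.6 CPM in NK (434 reads, 95% Poisson interval 85.0 to 103), 3417 CPM in ILC2 (31771 reads, 3379 to 3455), and 220 CPM (5643 reads, 215 to 226) and 263 CPM (3997 reads, 255 to 272) in MNK-3 replicates 1 and 2. Intervals here cover counting error only. ILC2 stood far above every other library, the MNK-3 pair lay close together, and NK was lowest. The intervals of the MNK-3 pair did not overlap, so at these read numbers intervals do not stand for the spread between libraries. ILC2 was 36.5-fold above NK (95% counting interval 33.2 to 40.2), 15.5-fold above MNK-3 replicate 1 (15.08 to 15.96) and 13.0-fold above replicate 2 (12.6 to 13.4). MNK-3 was 2.35-fold (2.13 to 2.60) and 2.81-fold (2.55 to 3.11) above NK. On the scale of log2(CPM + 0.5), with the mean of the MNK-3 pair, the differences were 5.18 for ILC2 over NK, 3.82 for ILC2 over MNK-3 and 1.36 for MNK-3 over NK, against medians of -0.09, -0.88 and 0.66 over all 30731 genes. The order held under every alternative tried, with ranges of 5.16 to 5.53, 3.70 to 4.38 and 1.15 to 1.49.

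**Figure D1:**
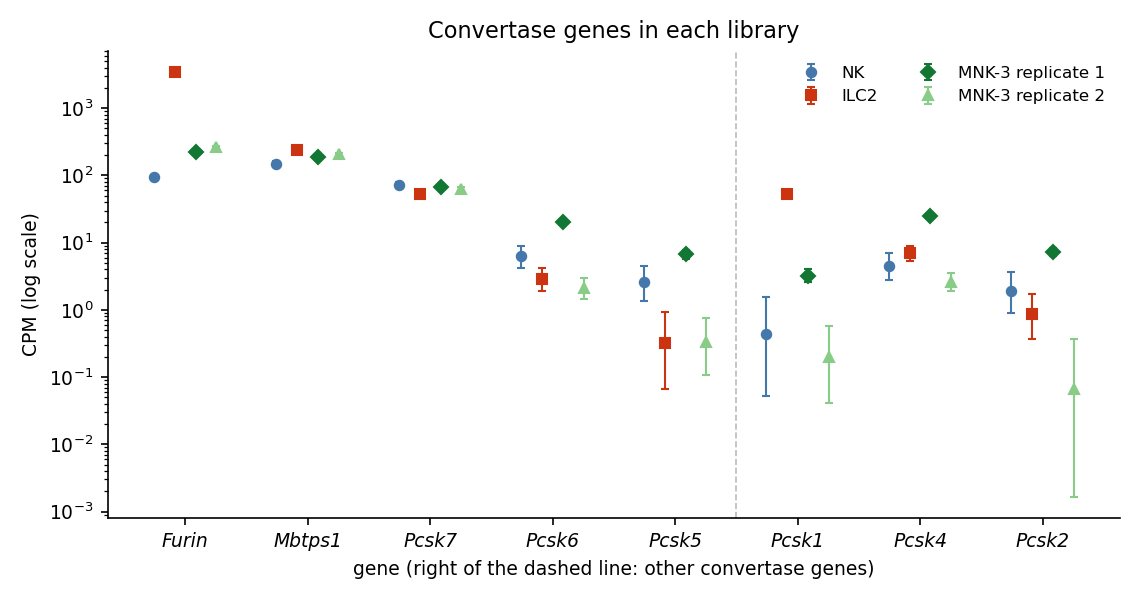
Level of each convertase gene in each of the 4 libraries, in CPM on a log axis; bars are 95% Poisson intervals and cover counting error only. Furin is at 3417 CPM in ILC2 and at 93.6 to 263 CPM elsewhere, Mbtps1 and Pcsk7 vary little, and the low genes other than Pcsk1 are highest in MNK-3 replicate 1.

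By CPM, Furin was the 6th most abundant gene of ILC2 and held 0.342% of its reads, while its rank was 2520 in NK and 714 and 755 in MNK-3. The genes above it in ILC2 were Gm26917, Actb (cytoplasmic actin), Hsp90ab1 (a chaperone), and Eef2 and Eif4g2 (translation factors). Eif4g2, the next above, had 3427 CPM, inside the counting interval of Furin, so that pair has no order. Scd2, a fatty acid desaturase and the next below, had 3242 CPM, outside the interval. Like Furin it was lower elsewhere, with 90.8 CPM in NK, with 77.0 and 80.3 CPM for the MNK-3 pair, whereas Eef1a1 and Myh9, the following ones, had levels in NK of 2625 and 5620 CPM, next to 3146 and 2999 CPM in ILC2. CPM favours long genes. Per kilobase of merged exons (9178 bases for Furin, introns kept in some annotated transcripts included), Furin had 372 CPM per kb in ILC2 and ranked 54th, against 10.2 in NK and 24.0 and 28.7 in MNK-3.

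An antisense gene, Gm44851, shares 118 exon bases with Furin, or 1.29% of its merged exons. Gm44851 had 1.08 CPM in NK, 32.3 CPM in ILC2, then 6.91 and 0.0659 CPM for the MNK-3 pair. It too was highest in ILC2, far below the Furin level. Since the strand setting of the counting is not stated, reads of the 2 genes cannot be told apart where they overlap.

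Mbtps1 (ENSMUSG00000031835, chromosome 8, 119508156 to 119558735, minus strand) was the steadiest of the 5 together with Pcsk7. Its level was 150 CPM in NK (695 reads), 236 CPM in ILC2 (2193 reads), then 189 and 205 CPM for the MNK-3 pair (4838 and 3109 reads). ILC2 was again highest and NK lowest. By library totals ILC2 was 1.57-fold above NK (1.44 to 1.72), and 1.25-fold (1.19 to 1.31) and 1.15-fold (1.09 to 1.22) above the MNK-3 libraries. The sizes depended on scaling. The log2 difference of ILC2 over NK was 0.65 by library totals and 1.00 with trimmed mean or median-of-ratios factors. That of ILC2 over MNK-3 was 0.26 by library totals, 0.62 with trimmed mean factors and 0.85 with median-of-ratios factors. The gap between the MNK-3 libraries was 0.922-fold for replicate 1 over 2 (0.881 to 0.965).

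Pcsk7 (ENSMUSG00000035382, chromosome 9, 45906497 to 45929726, plus strand) was lowest in ILC2, where Furin and Mbtps1 were highest. It had 72.9 CPM in NK (338 reads), 53.1 CPM in ILC2 (494 reads), then 66.4 and 62.2 CPM for the MNK-3 pair (1702 and 944 reads). ILC2 was at 0.729 of the NK level (0.634 to 0.840) and at 0.800 (0.722 to 0.884) and 0.854 (0.765 to 0.953) of the MNK-3 levels. MNK-3 replicate 1 was at 0.912 of the NK level (0.811 to 1.03), so that pair has no order, and replicate 2 was at 0.853 (0.753 to 0.969). The direction between ILC2 and MNK-3 depended on scaling: the log2 difference was -0.27 by library totals, 0.11 with trimmed mean factors and 0.35 with median-of-ratios factors. Pcsk7 overlaps genes on the other strand, by 415 exon bases with Rnf214 (7.98% of its exons) and by 108 with Tagln, and the counting may have split or lost reads there.

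Pcsk6 and Pcsk5 were under 10 CPM in all libraries but for Pcsk6 in MNK-3 replicate 1, and both were highest there. Pcsk6 (ENSMUSG00000030513, chromosome 7, 65861734 to 66050386, plus strand) had 6.25 CPM in NK (29 reads), 2.90 CPM in ILC2 (27 reads), 19.9 CPM in MNK-3 replicate 1 (511 reads) and 2.11 CPM in replicate 2 (32 reads). ILC2 was at 0.464 of the NK level (0.265 to 0.813). Against MNK-3 it was at 0.146 of replicate 1 (0.0950 to 0.214) and 1.38 times replicate 2 (0.794 to 2.37), so the direction turned with the library. Pcsk5 (ENSMUSG00000024713, chromosome 19, 17432319 to 17837632, minus strand) had 2.59 CPM in NK (12 reads), 0.323 CPM in ILC2 (3 reads), 6.75 CPM in MNK-3 replicate 1 (173 reads) and 0.329 CPM in replicate 2 (5 reads). MNK-3 over NK was 2.61 (1.46 to 5.15) by replicate 1 and 0.127 (0.0351 to 0.388) by replicate 2, and ILC2 over NK was 0.125 (0.0226 to 0.462). No order of Pcsk5 or Pcsk6 between MNK-3 and the other cells can be read from these libraries.

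Among the 3 other genes, Pcsk1 (ENSMUSG00000021587, chromosome 13, 75089826 to 75134861, plus strand) shared the ILC2-high pattern of Furin at a much lower level. It had 0.431 CPM in NK (2 reads), 52.5 CPM in ILC2 (488 reads), then 3.24 and 0.198 CPM for the MNK-3 pair (83 and 3 reads). ILC2 lay above every other library, MNK-3 replicate 1 was next, and NK and MNK-3 replicate 2 were at a few reads. The ratio of ILC2 to NK was 122, but with 2 reads in NK its counting interval ran from 33.5 to 1008. The ratio to MNK-3 was 16.2 (12.8 to 20.7) for replicate 1 and 266 (90.3 to 1292) for replicate 2, where 3 reads were counted.

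Pcsk4 (ENSMUSG00000020131) had 4.53 CPM in NK, 6.99 CPM in ILC2, then 24.5 and 2.64 CPM for the MNK-3 pair. Pcsk2 (ENSMUSG00000027419) had 1.94, 0.860, 7.26 and 0.0659 CPM in the same order. Both were highest in MNK-3 replicate 1 and lowest in replicate 2, so their direction against MNK-3 turned with the replicate used. By the size rule used below, 4-fold or more on log2(CPM + 0.5) and 10 CPM or more in whichever group is higher, 2 of the 8 family genes (Furin and Pcsk1) were higher in ILC2 than in NK, where 3.12% of all genes were. The same 2 were higher in ILC2 than in MNK-3 (1.42% of all genes), and none passed between MNK-3 and NK. The ILC2 library is common to the first 2 counts, and the levels chose the genes, so nothing is read from them.

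**Figure D2:**
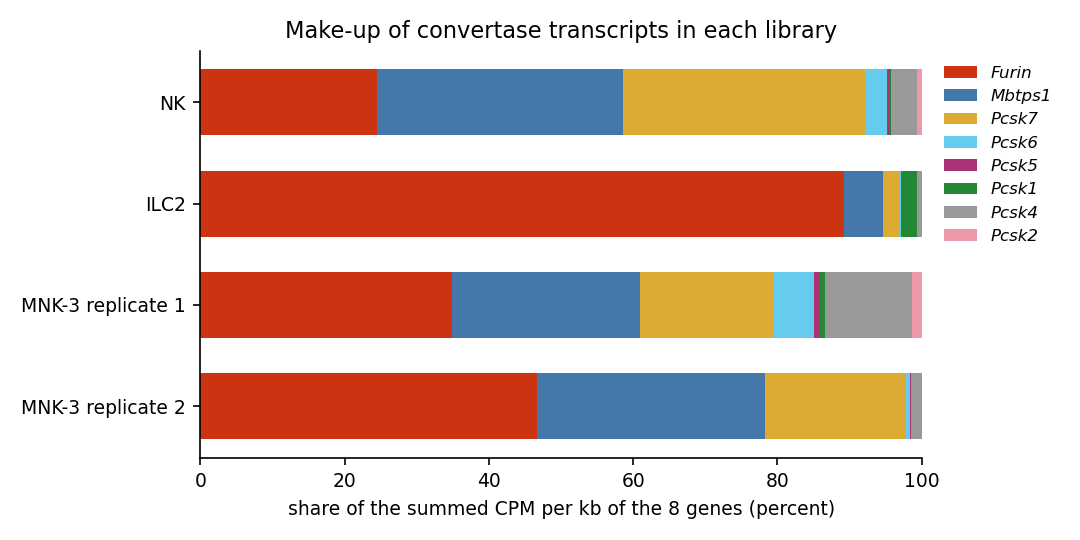
Share of each convertase gene in the summed CPM per kb of the 8 genes, in percent, for each library as a horizontal stacked bar. Furin makes up 89.2% in ILC2, 34.9% and 46.7% in MNK-3 replicates 1 and 2, and 24.5% in NK.

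The make-up of the family differed between cells (the stacked bars by library). Summed over the 8 genes, CPM per kb came to 41.7 in NK, 417 in ILC2, and 68.8 and 61.5 in MNK-3. Per kilobase, Furin made up 89.2% of the sum in ILC2, 34.9% and 46.7% in the MNK-3 libraries and 24.5% in NK. In NK, Mbtps1 (34.1%) and Pcsk7 (33.6%) each exceeded Furin. Mbtps1 held 5.36% in ILC2 and 26.1% and 31.6% in MNK-3, and Pcsk7 2.45% in ILC2 and 18.6% and 19.5% in MNK-3. Without Furin, the sum over the other 7 genes was 45.01 in ILC2, 31.5 in NK, and 44.8 and 32.8 in MNK-3. ILC2 was thus close to MNK-3 replicate 1 and above NK and replicate 2. Pcsk4 and Pcsk6 gave 8.29 and 3.84 CPM per kb in replicate 1, and 0.891 and 0.406 in replicate 2. With the length of the longest protein-coding transcript in place of merged exons (4332 bases for Furin, 4336 for Mbtps1, 3876 for Pcsk7), an alternative chosen after seeing the data, the Furin share was 90.6% in ILC2, 39.5% and 48.4% in MNK-3 and 27.3% in NK. Mbtps1 was then at 43.7% in NK, and Furin (27.3%) stood ahead of Pcsk7 (23.8%), so the order of those 2 in NK depends on the length used. The sum without Furin was then 82.2 in ILC2, 57.4 in NK, and 78.0 and 64.9 in MNK-3.

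**Figure D3:**
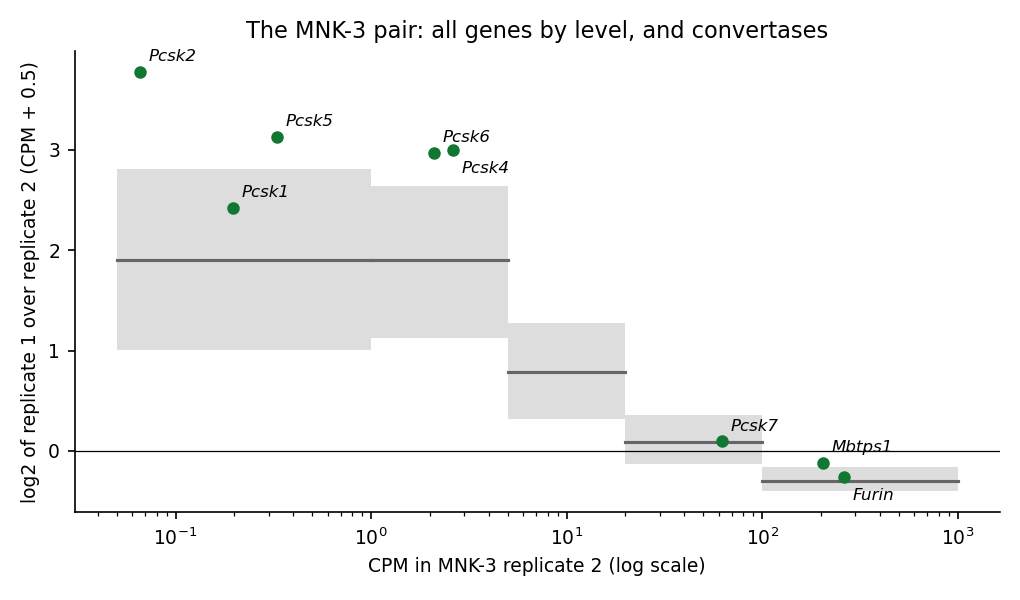
Log2 ratio of MNK-3 replicate 1 over replicate 2 (CPM + 0.5) against the level in replicate 2 on a log axis; lines and grey bands are the median and interquartile range of all genes in each range of level (the lowest and highest ranges are open-ended and drawn to the plot limits), and points are the 8 convertase genes. The 5 genes at up to 2.64 CPM in replicate 2 lie between 2.42 and 3.78, and Furin, Mbtps1 and Pcsk7 between -0.26 and 0.09.

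The 2 MNK-3 libraries gave near-equal levels for the abundant convertases only. The log2 ratio of replicate 1 over replicate 2 was -0.26 for Furin, -0.12 for Mbtps1 and 0.09 for Pcsk7. For the 5 low genes it ran from 2.42 (Pcsk1) to 3.78 (Pcsk2). The same split was present over all genes: the 17913 genes under 1 CPM in replicate 2 had a median of 1.90, and the 2875 genes at 100 CPM or more a median of -0.29. Genes were ordered here by the library in the denominator. MNK-3 replicate 1 is also the library with 76.5% of reads naming no gene, and the part of either in the low convertase levels was not tested.

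**Figure D4:**
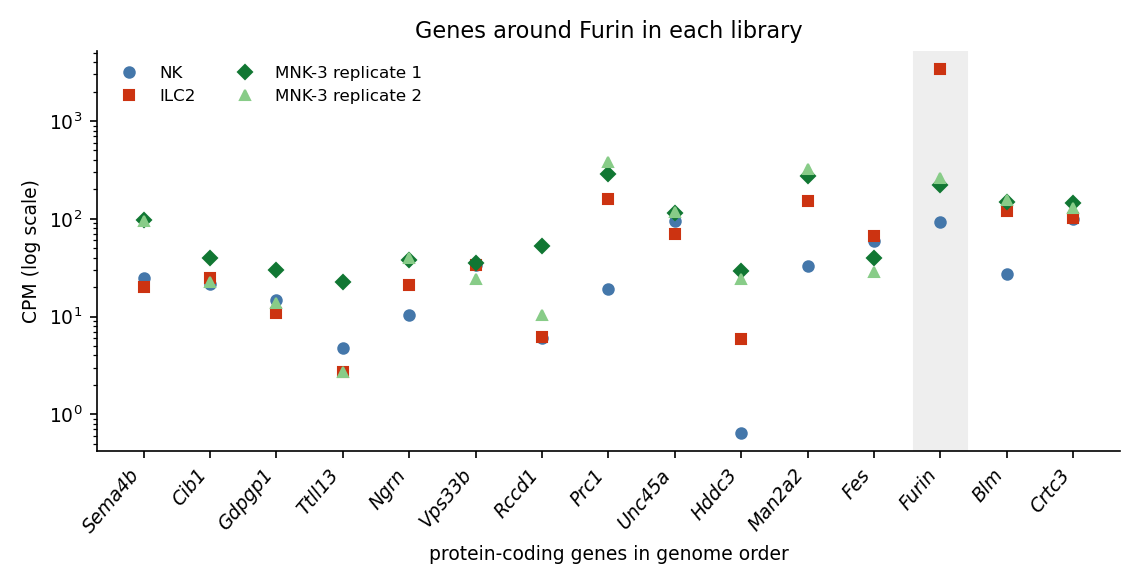
Levels of the 15 protein-coding genes within 250000 bases of Furin in genome order, in CPM on a log axis, with 1 point per library and Furin shaded. Furin is the gene with the widest gap between ILC2 and the other libraries; its neighbour Fes differs little.

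The genes next to Furin did not share its level in ILC2. Fes, which encodes a tyrosine kinase and lies 638 bases from Furin, had 59.1 CPM in NK, 67.1 CPM in ILC2, then 39.8 and 28.6 CPM for the MNK-3 pair. Blm, a DNA helicase gene 49296 bases to the other side, had 27.2 CPM in NK, 120 CPM in ILC2, then 147 and 157 CPM for the MNK-3 pair. Fes was thus nearly level between NK and ILC2, and Blm was lowest in NK. Of the 14 other protein-coding genes within 250000 bases, 3 were higher in ILC2 than in NK by the size rule. These were Prc1, Man2a2 and Blm. Of all genes 3.12% passed that rule, or 958 of the 9795 genes at 10 CPM or more in the higher group. Hddc3, at 0.647 CPM in NK and 5.92 CPM in ILC2, was past 4-fold but under 10 CPM. By the same rule none was higher in ILC2 than in MNK-3, and 4 were lower there (Sema4b, Ttll13, Rccd1 and Hddc3). Of all genes 5.2% were lower, or 1598 of the 11253 at 10 CPM or more. Prc1, which bundles microtubules in cell division, had 19.2 CPM in NK, 158 CPM in ILC2, then 286 and 383 CPM for the MNK-3 pair. Man2a2, a Golgi mannosidase gene, had 32.8, 152, 271 and 325 CPM. Against NK, 5 of the 14 were higher in MNK-3 by that rule (Rccd1, Prc1, Hddc3, Man2a2 and Blm). Of all genes 6.04% were higher, or 1857 of the 11277 at 10 CPM or more. Ttll13 and Rccd1 were high in MNK-3 replicate 1 (22.8 and 52.7 CPM) rather than in replicate 2 (2.701 and 10.3 CPM).

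Neighbours of the other members were looked at in the same way. Hsdl1, beside Mbtps1, had 40.1, 30.01, 48.4 and 46.6 CPM in NK, ILC2 and the MNK-3 pair, and Slc38a8 on the other side stayed under 8 CPM. Rfk and Ostf1 flank Pcsk5 and had 25.9 to 38.4 CPM and 155 to 256 CPM over the 4 libraries. Tm2d3, before Pcsk6, had 18.1, 17.1, 10.4 and 2.64 CPM, and Gm45213 after it had no read. Rnf214, which overlaps Pcsk7, had 49.4 to 71.2 CPM, and Tagln at most 3.04 CPM. Of the genes beside Pcsk1, Ell2, a transcription elongation factor gene 571895 bases away, was higher in ILC2, with 119 CPM against 24.1 CPM in NK, with 23.3 and 24.0 CPM for the MNK-3 pair, while Cast, the calpain inhibitor gene, had 363 CPM in NK, 179 CPM in ILC2, then 90.2 and 91.7 CPM for the MNK-3 pair.

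Genes with a profile most like that of Furin were found by the root mean square difference of log2(CPM + 0.5), centred on each gene's mean, over the 4 libraries. The nearest was Gm2a, the activator protein of ganglioside breakdown, with a difference of 0.088 and levels of 18.5 CPM in NK, 629 CPM in ILC2, then 40.2 and 44.5 CPM for the MNK-3 pair. Bnip3, a mitophagy receptor gene, followed at 0.22 (6.68, 179, 16.1 and 18.3 CPM), and then Icos, a costimulatory receptor gene, at 0.22 (10.8, 508, 20.8 and 31.8 CPM). Gsn, which severs actin filaments, was at 0.33. The remaining 6, from 0.43 to 0.48, were Aqp9, Areg, Rnf128, Aldoa, A4galt and Irak3. Areg, the EGF receptor ligand amphiregulin, is also one of the ILC2 markers, and Aldoa is the glycolytic aldolase, with 175, 2665, 292 and 393 CPM. With 4 libraries, likeness to Furin mostly means a high level in the single ILC2 library.

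The profiles of the other members had other company. The 5 genes nearest to Mbtps1 (Mrps24, Srp68, Golgb1, Psmb3 and Actr1b) were within 0.033, and the 5 nearest to Pcsk7 (Clp1, Amdhd2, Fem1a, Tapt1 and Triap1) within 0.037; all were nearly flat. Those nearest to Pcsk5 (Pdzd2, Gm10603, Fbxw4, Dnah17 and Gm10138, within 0.19) and to Pcsk6 (Arhgef17, B3gntl1, Cradd, Plppr3 and Cacna1i, within 0.17) were all highest in MNK-3 replicate 1. Pdzd2, for example, had 20.1, 5.81, 51.8 and 5.60 CPM.

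**Figure D5:**
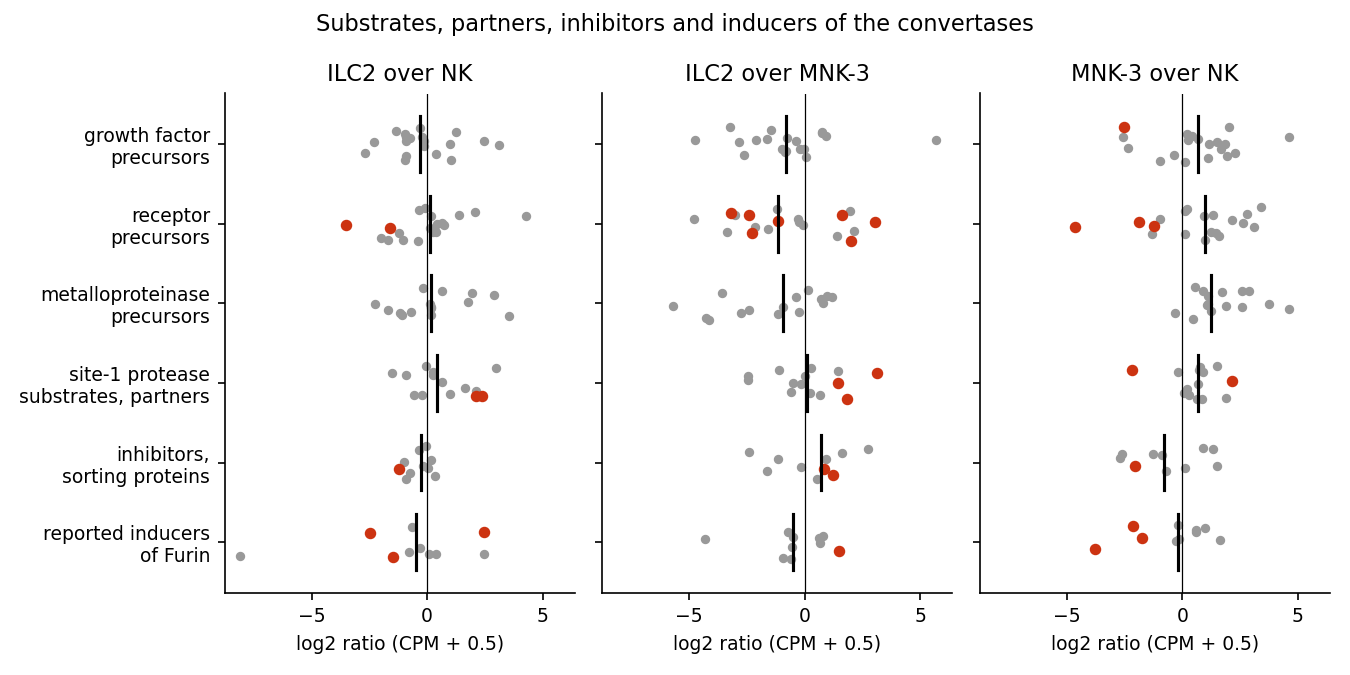
Log2 ratio (CPM + 0.5) of each gene of the 6 companion lists in the 3 comparisons, with the list median as a black bar and genes called by limma voom (adjusted p under 0.05) in red. The medians lie between -1.15 and 1.22, and members of each list lie on both sides of 0.

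Lists of substrates, partners, inhibitors and reported inducers were then read with 2 rules. The first is the size rule above. The second is limma voom with Benjamini-Hochberg adjusted p under 0.05 over 25283 genes, which takes its only spread from the MNK-3 pair and assumes that the lone NK and ILC2 libraries vary likewise. By size, 2.24% of all genes were lower in ILC2 than in NK, and 1.65% lower in MNK-3 than in NK. The median log2 ratio over all 30731 genes was -0.09 for ILC2 over NK, -0.88 for ILC2 over MNK-3 and 0.66 for MNK-3 over NK. Over genes at 10 CPM or more in the higher group, these medians were 0.07, -0.50 and 0.58. List medians below are to be read beside both sets of values. By limma voom, 0.479% of genes were called higher and 0.819% lower for ILC2 over NK, 2.37% and 0.902% for ILC2 over MNK-3, and 0.289% and 2.04% for MNK-3 over NK. These calls depend on scaling. Of 31 calls in the lists, 1 was kept with trimmed mean factors (Il12rb2, MNK-3 over NK), none with median-of-ratios factors and 8 with median-of-ratios factors from abundant genes, although none changed sign. A call below was lost with all 3 of these scalings unless it is said to be kept. The 8 kept with factors from abundant genes were lost with the other 2. Scaling also changes the spread of the MNK-3 pair, the only spread in the fit, so a kept call is no separate support.

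The 19 precursors of secreted factors cut by furin-type enzymes showed no common direction. Their median log2 ratio was -0.31 for ILC2 over NK, -0.82 for ILC2 over MNK-3 and 0.70 for MNK-3 over NK; without MNK-3 replicate 1 the last 2 turned to 0.34 and -1.05, and without replicate 2 they were -1.43 and 1.12. By size 2 were higher and 2 lower in ILC2 than in NK, 1 higher and 1 lower than in MNK-3, and 2 higher and 2 lower in MNK-3 than in NK. Tgfb1, which encodes the founding member of its family, had 196 CPM in NK, 394 CPM in ILC2, then 198 and 275 CPM for the MNK-3 pair, and was called in no comparison. Vegfc, a lymphatic growth factor gene, had 9.49, 86.6, 1.83 and 0.527 CPM, and so was at least 4-fold higher in ILC2 than in both. Bmp2 was the MNK-3 gene of the list, with 85.7 and 126 CPM against 3.88 CPM in NK and 3.44 CPM in ILC2. Pdgfb, with 110 CPM in NK, 16.5 CPM in ILC2, then 24.0 and 13.8 CPM for the MNK-3 pair, was the only one called, lower in MNK-3 than in NK by limma voom (log2 fold -2.46, SE 0.61, adjusted p 0.00321). Tnfsf12, the TWEAK gene, was likewise highest in NK, at 24.1 CPM against 3.36 to 5.40 CPM. Bmp7 had 25.8 CPM in ILC2 and 4.31 CPM in NK, with 23.3 and 3.29 CPM in MNK-3, and Tgfb3 had 9.06 CPM in NK, while the MNK-3 pair had 38.6 and 38.0 CPM.

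Among the 19 receptor and adhesion precursors, 3 were higher and 7 lower by size in ILC2 than in MNK-3, and 3 were called higher and 4 lower there. The list medians were 0.11 for ILC2 over NK, -1.15 for ILC2 over MNK-3 and 0.98 for MNK-3 over NK. Without MNK-3 replicate 1 the last 2 were -0.37 and -0.68, and ILC2 over MNK-3 was -0.59 with trimmed mean factors and -0.17 with median-of-ratios factors. ILC2 over NK had 2 higher and 1 lower by size and 2 called lower, and MNK-3 over NK 4 higher and 1 lower by size and 3 called lower (Itga4, Notch1 and Sorl1). Itga4, the alpha-4 integrin chain, was the most abundant, with 2249 CPM in NK, 751 CPM in ILC2, then 102 and 79.1 CPM for the MNK-3 pair. Each step of that order was called: ILC2 over NK at -1.58 (SE 0.25, limma voom adjusted p 1.46e-07), ILC2 over MNK-3 at 3.03 (SE 0.27, adjusted p 3.05e-26) and MNK-3 over NK at -4.62 (SE 0.26, adjusted p 5.68e-67). All 3 were kept with factors from abundant genes. Sorl1, a sorting receptor, had 563 CPM in NK, 49.7 CPM in ILC2, then 202 and 282 CPM for the MNK-3 pair, so ILC2 was lowest, and it fell in ILC2 against NK (-3.50, SE 0.54, limma voom adjusted p 7.94e-08) and against MNK-3 (-2.23, SE 0.51, adjusted p 0.000733). Its relative Sort1 went the other way, with 26.3 CPM in ILC2 against 0.862 CPM in NK, with 10.9 and 0.329 CPM for the MNK-3 pair.

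Notch1 and Notch2, whose receptors are cut by Furin on the way to the surface, were higher in ILC2 than in MNK-3. Notch1 had 255 CPM in NK, 284 CPM in ILC2, then 115 and 24.3 CPM for the MNK-3 pair (ILC2 over MNK-3 2.20, SE 0.34, limma voom adjusted p 1.66e-08), and Notch2 had 367, 569, 186 and 186 CPM (1.61, SE 0.25, limma voom adjusted p 2.40e-08). The Notch2 call was kept with factors from abundant genes. Igf1r, the receptor of insulin-like growth factors, was high in MNK-3, with 347 and 322 CPM against 30.6 CPM in NK and 36.1 CPM in ILC2. Lrp1, a large endocytic receptor, had 216 and 235 CPM in MNK-3, 31.9 CPM in NK and 42.3 CPM in ILC2. Both were lower in ILC2 than in MNK-3 by limma voom (Igf1r adjusted p 1.18e-05, Lrp1 adjusted p 0.000868), as was Itgav, at 134 CPM beside 259 and 335 CPM (limma voom adjusted p 0.0407). Itga5 and Itgae were also at least 4-fold lower in ILC2 than in MNK-3, at 25.9 CPM against 100 and 133 CPM and at 1.40 CPM against 26.5 and 11.1 CPM. Notch3 and Ptprk met the size rule in MNK-3 through replicate 1 alone, at 65.2 and 0.988 CPM and at 71.5 and 2.24 CPM. Plxnb2 had 43.9 CPM in ILC2 and 9.92 CPM in NK, with 19.2 and 2.64 CPM in MNK-3.

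None of the 15 metalloproteinase precursors was called, at medians of 0.16, -0.93 and 1.22 for the comparisons in the same order. The last 2 were -0.08 and 0.42 without MNK-3 replicate 1, and -1.40 and 2.00 without replicate 2. By size 2 were higher in ILC2 than in NK, 5 lower in ILC2 than in MNK-3, and 4 higher in MNK-3 than in NK. Adam10 and Adam17, the broadly expressed sheddases, were near-level, with 147 to 216 CPM and 121 to 193 CPM over the libraries. Adam9 had 22.9 CPM in NK, 79.8 CPM in ILC2, then 49.5 and 47.6 CPM for the MNK-3 pair. Adam15 and Adam19 were at least 4-fold higher in ILC2 than in NK, with 58.4 against 4.53 CPM and 25.4 against 3.02 CPM; in MNK-3 they had 37.4 and 22.3 CPM, and 21.3 and 0.659 CPM. Adam12 (144 and 203 CPM), Adamts1 (53.4 and 65.6 CPM) and Mmp17 (20.7 and 17.9 CPM) were MNK-3 genes, at no more than 14.0 CPM in NK or ILC2. Adamts4 and Mmp24 also passed the size rule against ILC2, with 19.9 and 19.6 CPM in MNK-3 replicate 1 but 0.395 and 2.90 CPM in replicate 2.

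The 14 substrates and partners of Mbtps1 had medians of 0.45, 0.11 and 0.69. By size 4 were higher in ILC2 than in NK, 1 was higher in ILC2 than in MNK-3, and 1 was higher and 1 lower in MNK-3 than in NK. In the same order 2, 3 and 1 were called higher, and 1 was called lower, in MNK-3 against NK. Insig1, which retains the SREBP complex in the endoplasmic reticulum, had 26.3 CPM in NK, 208 CPM in ILC2, then 22.2 and 23.8 CPM for the MNK-3 pair. It was the only gene of this list higher in ILC2 than in both other cells by size, and by the test it rose against MNK-3 by 3.19 on the log2 scale (SE 0.44, limma voom adjusted p 7.55e-11; 0.876 against NK). Srebf1, encoding a factor that Mbtps1 cuts, had 76.3, 337, 121 and 122 CPM. By limma voom ILC2 over NK was 2.14 (SE 0.62, adjusted p 0.0410) and ILC2 over MNK-3 was 1.47 (SE 0.29, adjusted p 3.88e-05). Srebf2, its relative in cholesterol synthesis, was high in both cultured cells, with 79.3 CPM in NK, 416 CPM in ILC2, then 312 and 405 CPM for the MNK-3 pair (ILC2 over NK 2.39, SE 0.60, limma voom adjusted p 0.00746; MNK-3 over NK 2.14, SE 0.57, adjusted p 0.0103). Creb3l2 had 33.2, 145, 36.0 and 45.8 CPM (ILC2 over MNK-3 1.87, SE 0.40, limma voom adjusted p 0.000269). Gnptab, another Mbtps1 substrate, was highest in NK at 197 CPM, against 69.0 CPM in ILC2, with 50.7 and 36.2 CPM for the MNK-3 pair (MNK-3 over NK -2.15, SE 0.44, limma voom adjusted p 9.30e-05).

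Among 10 inhibitors, chaperones and sorting proteins, medians were -0.25, 0.69 and -0.78; the first turned to 0.09 with trimmed mean or median-of-ratios factors. By size none differed between ILC2 and NK, 1 was higher in ILC2 than in MNK-3, and 3 were lower in MNK-3 than in NK. Flna, the filamin that tethers Furin at the cell surface, had 2358 CPM in NK, 1021 CPM in ILC2, then 482 and 652 CPM for the MNK-3 pair, and was called lower in ILC2 than in NK (-1.21, SE 0.24, limma voom adjusted p 0.000117), higher in ILC2 than in MNK-3 (0.89, SE 0.21, adjusted p 0.00130) and lower in MNK-3 than in NK (-2.09, SE 0.20, adjusted p 1.29e-21). All 3 were kept with factors from abundant genes, and the first 2 were lost with thinned libraries. Pacs1, a sorting adaptor that returns Furin to the trans-Golgi network, had 189, 239, 90.2 and 115 CPM (ILC2 over MNK-3 1.26, SE 0.32, limma voom adjusted p 0.00372). The adaptor subunits Ap1g1 and Ap1m1 had 155 to 187 CPM and 82.8 to 133 CPM. Gbp5, an interferon-induced GTPase reported to restrain Furin, had 75.7, 37.6, 16.4 and 7.51 CPM, and Pcsk1n, whose product inhibits the Pcsk1 protease, had 22.6 and 23.6 CPM in NK and ILC2 and 3.59 and 2.50 CPM in MNK-3.

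The reported inducers of Furin had no common direction, and their part in the Furin level was not tested. Medians of the 10 were -0.49, -0.51 and -0.16, the second turning to 0.10 with median-of-ratios factors and the last being -0.05 without MNK-3 replicate 1. By size 2 were higher and 2 lower in ILC2 than in NK, 1 was lower in ILC2 than in MNK-3, and 2 were lower in MNK-3 than in NK. Stat4 and Il12rb2, of the IL-12 pathway, were highest in NK. Stat4 had 355 CPM in NK, 127 CPM in ILC2, then 74.3 and 87.6 CPM for the MNK-3 pair (ILC2 over NK -1.48, SE 0.43, limma voom adjusted p 0.0447; MNK-3 over NK -2.16, SE 0.35, adjusted p 1.07e-07). Il12rb2 had 250 CPM in NK, 0.430 CPM in ILC2 (4 reads), then 26.3 and 9.09 CPM for the MNK-3 pair, and fell in MNK-3 against NK by limma voom (-3.73, SE 0.55, adjusted p 1.74e-09), the call kept with trimmed mean factors. Its partner chain Il12rb1 was highest in ILC2, with 38.4, 213, 116 and 126 CPM, and called in no comparison. Of the TGF-beta branch, Smad3 had 499 CPM in NK, 89.7 CPM in ILC2, then 146 and 150 CPM for the MNK-3 pair (ILC2 over NK -2.47, SE 0.45, limma voom adjusted p 1.13e-05; MNK-3 over NK -1.76, SE 0.30, adjusted p 9.64e-07), and Tgfbr2 had 165 to 305 CPM. Hif1a, the oxygen-regulated factor, was the single inducer called higher in ILC2, with 118 CPM in NK, 656 CPM in ILC2, then 198 and 271 CPM for the MNK-3 pair (ILC2 over NK 2.47, SE 0.48, limma voom adjusted p 8.08e-05; ILC2 over MNK-3 1.53, SE 0.24, adjusted p 2.89e-08). Both Hif1a and Il12rb1 had the order of Furin over the libraries. So had genes of the lists above, among them Srebf1, Srebf2 and Creb3l2. Tgfb1 had it too, with NK and MNK-3 replicate 1 nearly level. How many of all genes share that order was not counted, so nothing is read from it. The Hif1a call against MNK-3 was kept with factors from abundant genes.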

How the data were processed

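Total RNA with integrity numbers above 9 was made into libraries with the Pico kit (v2) of the SMARTer Stranded series and sequenced as 38 bp pairs, per the labels' protocols, which also call for 2 technical replicates per experiment; whether these were pooled is not stated. Per the submitters' processing notes alignment was by STAR 2.7.8a and counting by HTSeq on mm10/GRCm38; strand setting and gene set are not given in the sources used here. The deposited values are of a unit recorded as other: the authors' unnormalized whole-number read counts per gene, in tab-separated tables that could not be read by the check on units, so limma voom was used in place of a count model. NK and ILC2 list 53465 genes and MNK-3 31053; the 30731 in all 4 were used (3.05%, 1.89%, 0.131% and 0.0399% of gene reads were left out in NK, ILC2 and MNK-3 replicates 1 and 2). CPM are counts scaled to 1000000 reads in those genes. Entries naming no gene were left out; they held 49.3%, 25.9%, 76.5% and 26.6% in the same order. Symbols were found for 30615 genes.

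The fit (limma 3.58.1, R 4.3.3) held all 4 libraries in 3 groups with 1 residual degree of freedom, two-sided, on genes that reached 10 reads (adjusted for library size) and 15 reads in all. Folds between libraries carry 95% binomial intervals of the counts. Alternatives were other scalings (trimmed mean of M values, median of ratios, totals over all listed genes, thinning to the smallest library), 2 CPM added, no filter, and leaving out each MNK-3 library.

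The members and lists were chosen with earlier results of these data known. Genes named are 8 convertases (not every gene of the family is reported here), the neighbours of the members, of each list the 4 most abundant and every gene called or past 4-fold, the 10 profiles most like Furin and 5 most like each other member, and the 3 genes above and below Furin in ILC2; Gm26917, Actb, Pcsk1 neighbours and other genes near Furin were added after their values were seen. Start windows are from RefSeq on GRCm38.p6.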

Additional observations from a re-analysis of the deposited data

How the results depend on the processing

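The direction of every Furin ratio held in all 22 recomputed values. The log2 ratio of ILC2 over NK was 5.18 and moved to 5.53 with trimmed mean factors and to 5.53 with median-of-ratios factors; ILC2 over MNK-3 moved from 3.82 to 4.16 and 4.38, and MNK-3 over NK from 1.36 to 1.15 with median-of-ratios factors. Genes called by limma voom were the least stable values. For ILC2 over NK, 328 (121 higher, 207 lower) became 0 and 0 with trimmed mean and median-of-ratios factors (544 and 408 at an unadjusted p under 0.05; no other tool was run), 45 (10 and 35) when abundant genes set the factors, 1056 (570 and 486) with thinned libraries and 183 without the filter. For ILC2 over MNK-3, 828 (600 and 228) became 75 and 52 (all higher), 256 (229 and 27) and 1251 (647 and 604) under the same 4 scalings. For MNK-3 over NK, 590 (73 and 517) became 124 (2 and 122), 96 and 92 (all lower), 1582 (804 and 778), and 389 without the filter. The cause was not tested. Counts at 4-fold or more stayed within 1.5 times except without MNK-3 replicate 2, where ILC2 over MNK-3 went from 2035 to 3659 (1481 without replicate 1) and MNK-3 over NK from 2364 to 3654 (2140 without replicate 1). The split of higher and lower shifted with trimmed mean and median-of-ratios factors: for ILC2 over NK from 958 and 689 to 1268 and 537 and to 1301 and 557; for ILC2 over MNK-3 from 437 and 1598 to 675 and 939 and to 931 and 645; for MNK-3 over NK from 1857 and 507 to 1188 and 748 with median-of-ratios factors. Median-of-ratios factors moved the median of all genes by 0.52 for ILC2 over MNK-3 and by -0.40 for MNK-3 over NK. Of 154 recomputed ratios of the other family genes, 14 changed sign, all of values under the size rule. Calls without an MNK-3 library could not be fitted, since no residual degree of freedom is left, and neither could ILC2 over NK with only its own libraries. No paired analysis was possible, since NK and ILC2 have 1 library each. Under about 3 reads (0.117 to 0.647 CPM here) a level cannot be told from 0, which limits Pcsk1, Pcsk2 and Pcsk5 most.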
